A study of Mus musculus with 8 samples.

Results

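The transcripts examined here encode 42 nucleolar proteins that make ribosomes: 3 subunits of RNA polymerase I and 39 factors that modify, cut and fold ribosomal RNA or join it to ribosomal proteins. The rule that lists them goes by name and uses no measured value, though the list was drawn up with earlier results of these data known, and all 42 were found by gene symbol among the 53465 genes of the count table. All 42 were abundant enough to be tested, together with 17691 other genes (17733 in all). PolyA RNA was sequenced from Ba/F3, a mouse line labelled as immortalised pro-B cells of C3H background. In 3 libraries (parental 1 to 3) the cells were parental and had wild-type U2AF35, and in 5 (transformed 4 to 8) they were cells transformed with U2AF35 carrying the S34F substitution. U2AF35, the product of U2af1, recognises the end of the intron during splicing. The labels do not say whether the transformed cells were 1 clone, which promoter drove the introduced U2AF35, or whether interleukin-3 was in the medium. They name no separate cultures either, so the p-values speak only to library-to-library spread, which may be technical.

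Ribosome production starts in the nucleolus, where RNA polymerase I transcribes ribosomal DNA into 1 long precursor. Small nucleolar RNA-protein particles (snoRNPs) modify the precursor, the small-subunit processome folds and cleaves the part that becomes the 40S subunit, and other factors, such as the PES1-BOP1-WDR12 (PeBoW) complex, mature the part that becomes the 60S subunit. The pathway takes up much of the biosynthetic effort of a proliferating cell, and many of its genes are textbook targets of the transcription factor MYC, which binds the E-box CACGTG.

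The start regions of these genes are shown first because some of them share that sequence. RefSeq promoters (GRCm38.p6, 250 bases before to 50 bases after the start site) were at hand for 37 of the 42 genes. CACGTG, which reads the same on both strands, was found in 9 of the 37 (24.3%), against 8.09% of the 27025 genes with a promoter in the same reference and 13.0% of the 3825 among them that were tested here and at least as abundant as the scarcest of the 42. In 7 of the 9 it lay at or after the start site, from 2 bases after it in Pes1 to 40 in Mybbp1a. In Imp4 and Nop2 it began 121 and 60 bases before. The 9 matches are given below with up to 12 bases on each side inside the window, 5′ to 3′, with the E-box in capitals.
Grwd1, chr7:45830740-45830767, minus strand: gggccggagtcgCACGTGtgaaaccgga
Wdr43, chr17:71616220-71616249, plus strand: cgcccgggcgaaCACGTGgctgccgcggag
Tsr1, chr11:74898092-74898121, plus strand: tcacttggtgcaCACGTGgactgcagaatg
Mybbp1a, chr11:72441355-72441376, plus strand: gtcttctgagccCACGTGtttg
Ltv1, chr10:13193092-13193121, minus strand: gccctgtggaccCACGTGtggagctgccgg
Utp20, chr10:88826765-88826789, minus strand: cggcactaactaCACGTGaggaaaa
Nop2, chr6:125131811-125131840, plus strand: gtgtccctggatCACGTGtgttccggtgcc
Imp4, chr1:34439696-34439725, plus strand: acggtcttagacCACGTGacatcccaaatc
Pes1, chr11:3963965-3963994, plus strand: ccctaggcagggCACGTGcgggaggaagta
A variant E-box, CACGCG on either strand, was in 11 of the 37 (29.7%), against 10.5% of all genes with a promoter and 22.8% of the equally abundant ones. A match of one motif cannot be a match of the other, and Pes1 and Mybbp1a held both. The 3 genes that passed the test between the groups (below) had neither motif in the searched 300 bases. The 250 bases before their RefSeq start sites are shown because these are the genes that passed. By GENCODE's gene spans, the whole Heatr1 stretch and the end of the Gnl3 stretch nearest its start lie inside the gene.
Polr1a, chr6:71908803-71909052, plus strand: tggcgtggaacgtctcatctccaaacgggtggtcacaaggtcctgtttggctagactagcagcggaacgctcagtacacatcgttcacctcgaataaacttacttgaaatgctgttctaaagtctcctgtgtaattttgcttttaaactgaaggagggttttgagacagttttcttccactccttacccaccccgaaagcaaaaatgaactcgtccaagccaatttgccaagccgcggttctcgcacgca
Heatr1, chr13:12395125-12395374, plus strand: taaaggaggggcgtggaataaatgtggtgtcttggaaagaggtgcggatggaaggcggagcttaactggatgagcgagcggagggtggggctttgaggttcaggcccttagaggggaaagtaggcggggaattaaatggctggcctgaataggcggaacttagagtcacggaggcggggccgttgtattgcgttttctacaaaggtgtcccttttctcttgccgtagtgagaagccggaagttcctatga
Gnl3, chr14:31019132-31019381, minus strand: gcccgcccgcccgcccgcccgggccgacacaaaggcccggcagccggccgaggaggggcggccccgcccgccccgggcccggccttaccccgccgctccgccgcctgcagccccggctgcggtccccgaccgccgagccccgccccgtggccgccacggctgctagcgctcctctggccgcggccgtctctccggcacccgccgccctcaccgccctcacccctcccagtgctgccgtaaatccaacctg
The 9 genes with CACGTG had log2 fold changes from 0.27 to 0.74 (median 0.46), and the median of the 28 genes without it was 0.36. For CACGCG the order was the other way, with a median of 0.34 in the 11 genes with it (lowest -0.11) and 0.43 in those without. Neither difference was tested, and a match describes letters in a window, not binding.

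Per unit of transcript length, the genes spanned an 88.2-fold range in parental cells. Levels between genes are given as TPM, counts scaled here by the length of all annotated exons and by depth, so that a gene with long rare exons reads low. Npm1, a histone chaperone and shuttling nucleolar protein, stood first at 1514 ± 98.0 TPM (SD, n = 3), above every other gene in each parental library. Ncl (nucleolin, which binds the ribosomal RNA precursor) and Nop10 (the smallest protein of the H/ACA particle) followed at 374 ± 16.9 and 373 ± 39.3 TPM, with overlapping ranges. Nhp2 had 296 ± 49.8 and Nolc1 231 ± 50.4 TPM. At the low end were Polr1a (24.3 ± 1.44 TPM) and Utp20 (17.2 ± 2.25 TPM), a very large processome scaffold. In this order 37 of the 41 pairs of neighbours overlapped in their parental ranges, and 57.4% of the genes tested had a lower parental TPM than Utp20. Reads of Npm1 and other abundant genes may be shared with processed pseudogenes, which gene counts do not resolve.

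The libraries held between 36122062 counts (transformed 7) and 50305573 (parental 1). The 42 genes held 0.810% to 0.941% of the counts in the parental libraries and 0.914% to 1.23% in the transformed ones. By a lane tag in the labels, parental 1 and 3 and transformed 5 and 8 were in lane 6, and parental 2 and transformed 4, 6 and 7 in lane 7. Of 12 pro-B cell markers only Cd79a, Cd79b and Ptprc reached 1 CPM in every library, 9 stayed below 1 CPM in all, and Rag1 and Il7r had 0 counts throughout. Their sum was 436 to 519 CPM in parental and 375 to 558 CPM in transformed libraries, most of it Ptprc. In mixed RNA, a smaller share of cells and less RNA per cell cannot be told apart. Levels are relative to the other genes of a library, and RNA content per cell was not measured.

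In transformed cells 40 of the 42 genes had a higher fitted level than in parental cells. The median log2 fold change was 0.43, against 0.017 over all genes tested, where 52.3% were positive, and 0.038 over the 5150 genes at least as abundant, where 56.7% were. Single fold changes were modest, from -0.11 in Polr1c to 0.74 in Grwd1 on the log2 scale. At an adjusted p of 0.05 in edgeR's quasi-likelihood test, 3 genes were higher (7.14%, against a background of 0.908% of all genes called higher) and 0 lower (background 2.1%, and 3.01% in either direction). At an unadjusted p under 0.05, 28 were higher (background 10.6%) and 0 lower (background 11.6%). DESeq2 called 19 higher (background 5.28%) and 0 lower (background 6.12%). limma-voom called 4 higher (background 0.902%) and 0 lower (background 2.42%). In 14 genes all 5 transformed libraries lay above all 3 parental ones (33.3%, against 8.07% of all genes). In 16 more 4 of 5 did, as in 2257 of the 17733 genes tested. In 0 genes did all 5 lie below (9.69% of all genes).

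**Figure D1:**
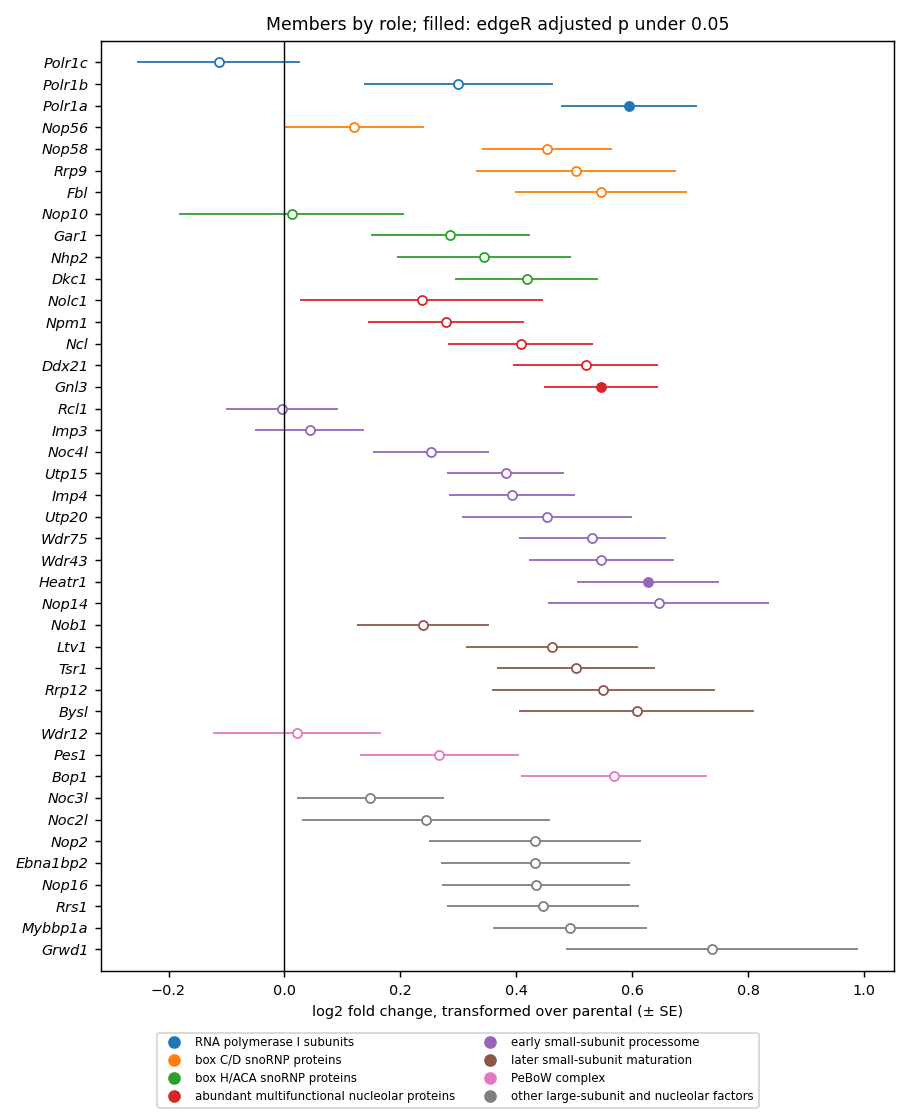
Log2 fold change of transformed over parental cells (horizontal axis, log2 scale, ± SE) for each of the 42 genes, coloured by role, with filled points for an edgeR adjusted p under 0.05. Nearly all points lie right of 0, Polr1a, Gnl3 and Heatr1 are filled, and Polr1c, Rcl1, Nop10, Imp3 and Wdr12 lie near 0.

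Of the RNA polymerase I subunits, 2 of 3 had positive fold changes. Polr1a (ENSMUSG00000049553, chromosome 6, 71909053 to 71984935) encodes the largest, catalytic subunit. It was at 116, 129.8 and 119 TMM-scaled CPM (counts scaled by library size) in parental 1, 2 and 3 and at 156, 213, 181, 166 and 201 CPM in transformed 4, 5, 6, 7 and 8. Every transformed library was above every parental one, with transformed 5 and 8 the highest. Polr1a rose 1.51-fold (log2 fold change 0.59 with an SE of 0.12 and an edgeR adjusted p of 0.0370). With lane as a covariate Polr1a did not pass (edgeR adjusted p = 0.0607). The second-largest subunit, Polr1b, had a log2 fold change of 0.30 (SE 0.16, edgeR adjusted p = 0.315). It was lowest in transformed 7, at 59.4 CPM, under the parental range of 60.5 to 79.2 CPM. Polr1c, which is also part of RNA polymerase III, was at 65.6, 55.8 and 52.0 CPM in parental and at 51.1, 59.9, 58.4, 40.7 and 57.0 CPM in transformed libraries. Its groups overlapped and its log2 fold change was -0.11 (SE 0.14, edgeR adjusted p = 0.684). The differences between the subunits were not tested.

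In the box C/D particle, which guides methylation of ribosomal RNA, 4 of 4 genes were positive (median 0.48). In edgeR 0 passed (3 at an unadjusted p under 0.05), in DESeq2 2 and in limma-voom 0. Backgrounds for this and the roles below were 0.908% in edgeR (10.6% unadjusted), 5.28% in DESeq2 and 0.902% in limma-voom, all for higher calls. Nop58, a core protein of the particle, was at 247, 306 and 278 CPM in parental 1 to 3 and at 314, 399, 379.9, 396 and 405 CPM in transformed 4 to 8. The groups did not overlap, but transformed 4 stood just above parental 2, and Nop58 missed the threshold (log2 fold change 0.45 with an SE of 0.11 and an edgeR adjusted p of 0.0626). Fbl, the methyltransferase fibrillarin, also separated the groups (119 to 144 against 153 to 235 CPM, log2 fold change 0.55, SE 0.15). Its partner Nop56 did not (323 to 433 against 358 to 466 CPM, log2 fold change 0.12, SE 0.12). Rrp9, which binds the U3 snoRNA, was at 53.2 to 70.7 CPM in parental cells and at 58.6 CPM in transformed 4 but 87.3 to 95.9 CPM in the other 4 transformed libraries.

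In the box H/ACA particle, which guides pseudouridylation, 4 of 4 were positive (median 0.32), 0 passed in edgeR (2 at an unadjusted p under 0.05), 1 in DESeq2 and 0 in limma-voom. Dkc1, the pseudouridine synthase dyskerin, was at 143, 176 and 169 CPM in parental 1 to 3 and at 186, 248, 209, 199 and 242 CPM in transformed 4 to 8. The groups did not overlap (log2 fold change 0.42 with an SE of 0.12 and an edgeR adjusted p of 0.0956). Nhp2, an RNA-binding protein of the particle, had 129.7, 170.4 and 127 CPM in parental libraries. In transformed 4 to 8 it had 180.1, 208, 186, 138 and 193 CPM, with transformed 7 inside the parental range. Nop10 was at 169, 194 and 158 CPM in parental libraries and at 205, 198, 180.5, 107 and 186 CPM in transformed ones. Its groups overlapped, transformed 7 was lowest of all 8 libraries, and its log2 fold change was 0.012 (SE 0.19). Gar1, the remaining protein, lay between (log2 fold change 0.29, SE 0.14).

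Among the multifunctional nucleolar proteins, 5 of 5 were positive (median 0.41). These are labelled abundant in the figures, but Gnl3 was at 55.5 TPM in parental cells, below the median of the 42 (70.5). In edgeR 1 passed (3 at an unadjusted p under 0.05), in DESeq2 3 and in limma-voom 1. Gnl3 (nucleostemin, ENSMUSG00000042354, chromosome 14, 31012433 to 31019152), a GTPase of stem and proliferating cells, was at 127, 156 and 144 CPM in parental 1 to 3. In transformed 4 to 8 it was at 221, 226, 205, 191 and 197 CPM. It was 1 of the genes for which transformed 4 was not low, and it rose 1.46-fold (log2 fold change 0.55 with an SE of 0.10 and an edgeR adjusted p of 0.0301), the smallest adjusted p of the 42. With lane as a covariate Gnl3 did not pass (edgeR adjusted p = 0.0672). Ncl was at 1574, 1687 and 1548 CPM in parental libraries and at 1680.3, 2408, 2070.1, 2038 and 2438 CPM in transformed ones. Only transformed 4 fell inside the parental range (log2 fold change 0.41 with an SE of 0.13 and an edgeR adjusted p of 0.105).

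Npm1 was at 1728, 1785 and 1575 CPM in parental 1 to 3 and at 1559, 2247, 2258, 1915 and 2303 CPM in transformed 4 to 8, where transformed 4 was the lowest of all libraries (log2 fold change 0.28 with an SE of 0.13 and an edgeR adjusted p of 0.262). Nolc1, a chaperone of snoRNPs, was at 309, 477 and 370.3 CPM in parental and at 356, 577, 460.0, 338 and 539 CPM in transformed libraries. Parental 2 was above 3 of the 5 transformed libraries there, and the fit gave 0.24 (SE 0.21). Ddx21, an RNA helicase of RNA polymerase I transcripts, separated the groups (268 to 358 against 366 to 467 CPM, log2 fold change 0.52 with an SE of 0.12 and an edgeR adjusted p of 0.0582).

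The early small-subunit processome gave the largest share of genes without overlap, 6 of 10 (8.07% of all genes). Of the 10, 9 were positive (median 0.42), 1 passed in edgeR, 2 in limma-voom and 6 in DESeq2. Heatr1 (ENSMUSG00000050244, chromosome 13, 12395027 to 12440289) encodes a scaffold of the processome that is also needed for transcription by RNA polymerase I. It was at 79.0, 99.0 and 79.4 CPM in parental 1 to 3 and at 109, 142, 129, 141 and 142 CPM in transformed 4 to 8. The 5 transformed libraries lay above the 3 parental ones, and Heatr1 rose 1.54-fold (log2 fold change 0.63 with an SE of 0.12 and an edgeR adjusted p of 0.0365). With lane as a covariate Heatr1 did not pass (edgeR adjusted p = 0.0763). Its partners in the same subcomplex among the 42 genes, Utp15, Wdr43 and Wdr75, also separated the groups. Their log2 fold changes were 0.38, 0.55 and 0.53 (edgeR adjusted p = 0.0738, 0.0521 and 0.0582). Partners outside the 42, Utp4 and Nol11, did not separate the groups (log2 fold changes of 0.33 and 0.53, edgeR adjusted p = 0.173 and 0.213). Wdr43 was the closest of the 39 others to the threshold, and it passed in limma-voom and DESeq2.

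Nop14 and Imp4, both processome proteins, separated the groups too. Nop14 ranged from 66.4 to 85.4 CPM in parental cells and was at 87.6, 105, 112, 163 and 111 CPM in transformed 4 to 8, so that transformed 7 alone was at the top (log2 fold change 0.65 with an SE of 0.19 and an edgeR adjusted p of 0.0957). Imp3, the partner of Imp4 at the U3 snoRNA, had a log2 fold change of 0.044 (SE 0.094), against 0.39 (SE 0.11) for Imp4. Rcl1, another processome protein, was at 86.2, 108 and 93.0 CPM in parental libraries. In transformed ones it was at 98.3, 102, 95.9, 87.1 and 94.7 CPM. All 5 transformed values lay inside the parental range (log2 fold change -0.0046 with an SE of 0.097 and an edgeR adjusted p of 0.986). Utp20 and Noc4l lay above the parental range in 4 of 5 transformed libraries each.

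Later 40S maturation factors had the highest median of the roles, 0.50, with 5 of 5 positive. In edgeR 0 passed (4 at an unadjusted p under 0.05), in limma-voom 0 and in DESeq2 3. Tsr1, a factor of pre-40S particles that resembles translation GTPases, was at 47.7, 68.0 and 52.1 CPM in parental 1 to 3 and at 72.7, 90.7, 74.5, 74.0 and 84.7 CPM in transformed 4 to 8 (log2 fold change 0.50 with an SE of 0.14 and an edgeR adjusted p of 0.0772). The groups did not overlap, but 32.3% of the exon bases of Tsr1 overlap Srr on the other strand, and the strand setting of the counts is not given. Bysl, Rrp12, Ltv1 and Nob1, whose product cuts the end of 18S ribosomal RNA, had log2 fold changes of 0.61, 0.55, 0.46 and 0.24 and each had 4 of 5 transformed libraries above the parental ones. Bysl overlaps Ccnd3 on the other strand in 9.37% of its exon bases, and Nop14 (above) another gene in 5.27%.

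On the 60S side, in the PeBoW complex, needed for 28S and 5.8S ribosomal RNA, 0 of 3 passed in edgeR (1 at an unadjusted p under 0.05), 0 in limma-voom and 1 in DESeq2. Bop1 was at 116, 181 and 131 CPM in parental 1 to 3 and at 224, 247, 199.7, 179.6 and 207 CPM in transformed 4 to 8. Transformed 7 was just under parental 2, and the log2 fold change was 0.57 (SE 0.16, edgeR adjusted p = 0.0856). Its partners Pes1 and Wdr12 had log2 fold changes of 0.27 (SE 0.14) and 0.021 (SE 0.14), and Wdr12 was highest in transformed 4 (171 CPM) and lowest in transformed 7 (114 CPM). Of the other 8 large-subunit and nucleolar factors, 8 were positive (median 0.43), 0 passed in edgeR (6 at an unadjusted p under 0.05), 0 in limma-voom and 2 in DESeq2.

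Mybbp1a, a nucleolar partner of MYB and of the ribosomal RNA machinery, was the 1 of these 8 whose groups did not overlap. It had 443, 553 and 421 CPM in parental 1 to 3 and 582, 772, 672, 580.3 and 716 CPM in transformed 4 to 8 (log2 fold change 0.49 with an SE of 0.13 and an edgeR adjusted p of 0.0779). Grwd1, a chaperone of ribosomal protein L3, had the largest fold change and the largest error of the 42, at 0.74 (SE 0.25, edgeR adjusted p = 0.135). It ran from 28.5 to 42.0 CPM in parental libraries and from 37.7 CPM in transformed 7 to 80.1 CPM in transformed 5. Noc3l and Noc2l had the smallest values here, 0.15 (SE 0.13) and 0.24 (SE 0.21), and 20.9% of the exon bases of Noc2l overlap Samd11 on the other strand. Nop2, Nop16, Rrs1 and Ebna1bp2 lay between 0.43 and 0.45.

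**Figure D2:**
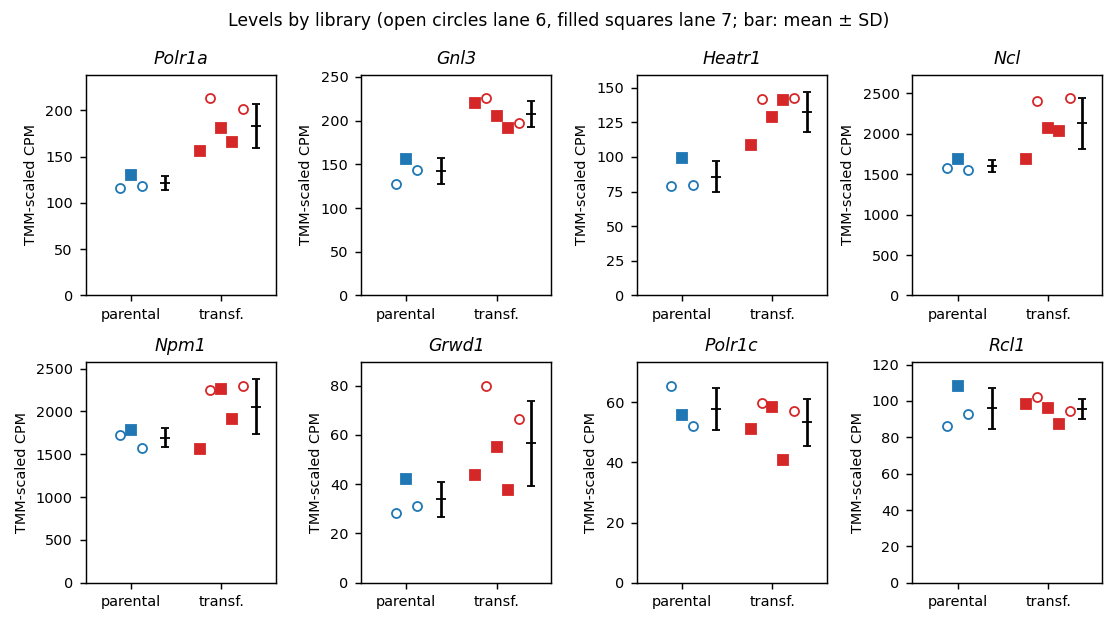
TMM-scaled CPM (vertical axes, linear, from 0) of 8 genes in each library, with open circles for lane 6, filled squares for lane 7, and bars for the mean ± SD of each group. Polr1a, Gnl3 and Heatr1 separate the groups, in Ncl and Npm1 transformed 4 lies within or below the parental range, and Polr1c and Rcl1 overlap.

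The 5 transformed libraries did not carry the difference to the same degree. On log2 CPM minus the parental mean, the average over the 42 genes was 0.17 in transformed 4, 0.27 in transformed 7, 0.39 in transformed 6, 0.48 in transformed 8 and 0.56 in transformed 5. Transformed 4, 7 and 6 were all in lane 7, and transformed 8 and 5 in lane 6, so this order and lane cannot be told apart. The parental libraries stood at -0.13, 0.18 and -0.057, so parental 2, also in lane 7, was level with transformed 4. Of the 42 genes, 40 were above the parental mean in parental 2 but 5 in parental 1 and 8 in parental 3. In all 42 the lowest transformed library was transformed 4 (23 genes) or transformed 7 (19 genes), and the highest of all 8 libraries was transformed 5 in 23 genes.

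Transformed 4 and 7 were low in different roles. Transformed 7 was near or below the parental mean for RNA polymerase I subunits (-0.073), box H/ACA proteins (-0.092) and the PeBoW complex (0.022), yet at 0.46 for the early processome and 0.51 for later 40S factors. Transformed 4 was at 0.40 for the PeBoW complex, its highest role, and at 0.090 for the other large-subunit factors. These are averages over 3 to 10 genes of 1 library each and were not tested. Transformed 4 also held the most RNA of 10 mast cell and basophil markers, summed at 1670 CPM, against 441 to 656 CPM in the other transformed and 742 to 927 CPM in the parental libraries. Most of that sum was Gata2, at 1269 CPM in transformed 4. Of these markers 5 reached 1 CPM in every library, and Kit and Fcer1a had 0 counts in all 8. The lowest unadjusted p of these markers between the groups was 0.310 (Hdc, edgeR). Of 10 granulocyte and macrophage markers, summed at 270 to 370 CPM in parental and 87.6 to 412 CPM in transformed libraries, Prg2 passed as lower. That sum was mostly Adgre1, and both were lowest in transformed 4 (Adgre1 at 48.4 CPM) and highest in transformed 7 (Adgre1 at 404 CPM). Lyz2 and Itgam were also highest in transformed 7, but only at 2.63 and 0.34 CPM, and Itgam was too scarce to be tested. Mpo, Prtn3 and Prg2 were instead lowest of all 8 libraries there, at 1.51, 1.80 and 0.029 CPM, and Mpo was at 21.8 CPM in transformed 4. The 6 T cell markers summed to at most 3.89 CPM, with Cd8a at 0 counts throughout. The part of these markers in the values of transformed 4 and 7 was not tested.

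**Figure D3:**
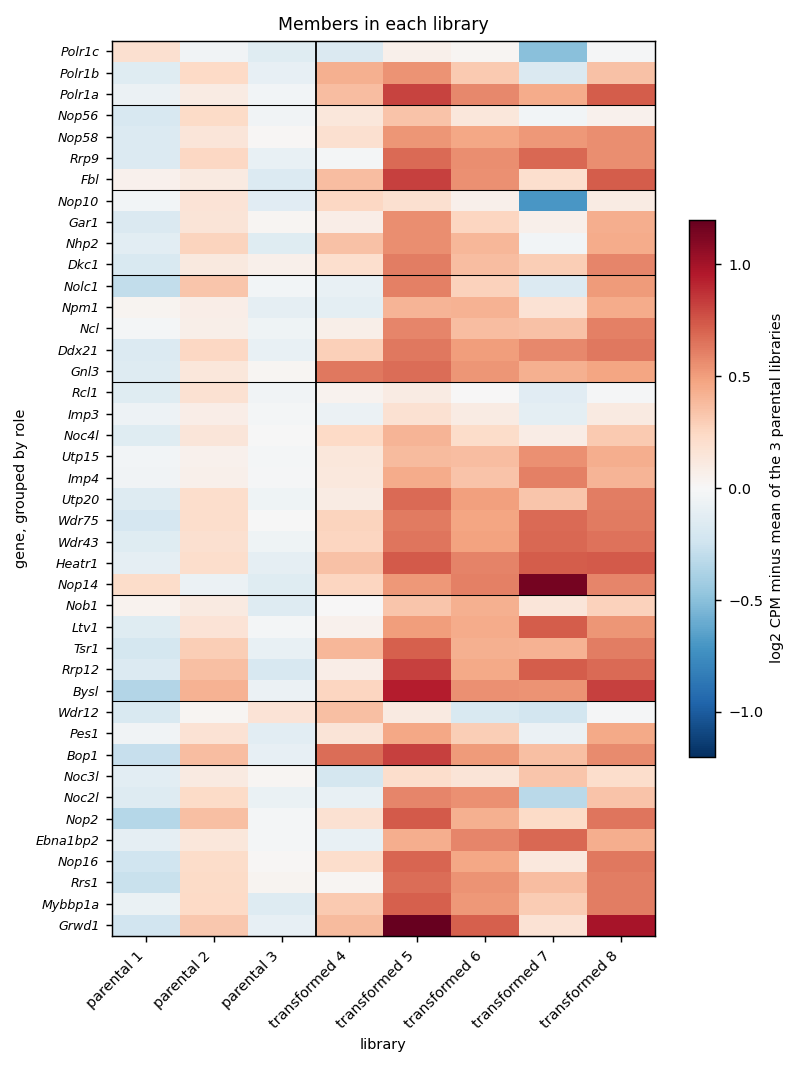
Log2 CPM minus the mean of the 3 parental libraries (colour, red above and blue below) for the 42 genes (rows, grouped by role) in the 8 libraries (columns). Transformed 5, 6 and 8 are red in nearly every row, transformed 4 is paler, and transformed 7 is dark red for Nop14 but blue for Nop10.

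Within lane 6 (parental 1 and 3, transformed 5 and 8) 42 of 42 genes were positive with a median log2 fold change of 0.65, and 35 passed as higher in edgeR (background 9.6%). There both transformed libraries lay above both parental ones in 40 of 42 genes (30.7% of all genes). Parental 1 or 3 was the lowest of all 8 libraries in 34 genes, and transformed 5 or 8 the highest in 28. The lane and these libraries cannot be told apart. Within lane 7 (parental 2 against transformed 4, 6 and 7) 28 were positive and the median was 0.099. The fit there assumed that the lone parental library varied like the transformed ones, so counts of calls from it carry little weight. All 3 transformed libraries were above parental 2 in 14 genes (23.4% of all genes) and below it in 3 (24.6% of all genes).

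The 3 genes called were positive in both lanes, which follows from all 5 transformed libraries lying above all 3 parental ones in each. Polr1a had log2 fold changes of 0.84 in lane 6 and 0.36 in lane 7, Heatr1 0.86 and 0.34, and Gnl3 0.65 and 0.39. Nolc1 went from 0.73 to -0.31, Grwd1 from 1.31 to 0.11 and Bysl from 1.10 to 0.029. Nop14 was the 1 gene with a larger value in lane 7 (0.78) than in lane 6 (0.52). An interaction term of lane and group, added after seeing the data, had an unadjusted p under 0.05 in 17 of the 42 genes (background 3.25%), but 0 passed after adjustment in edgeR (lowest adjusted p = 0.966), nor did any gene of the table. Lane 7 holds 1 parental library, so the lane and parental 2 itself cannot be told apart. It also holds transformed 4 and 7, between them the lowest transformed library in all 42 genes, and these cannot be told apart from the lane either.

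**Figure D4:**
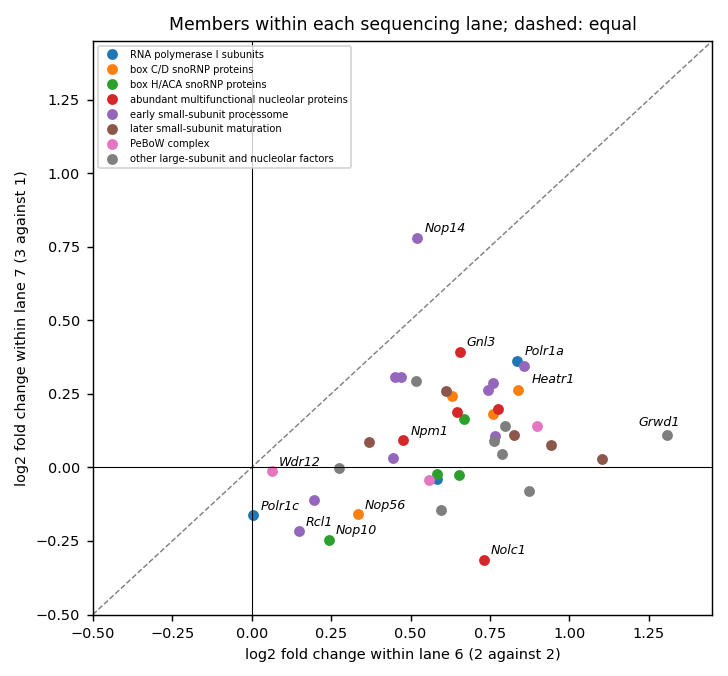
Log2 fold change of each of the 42 genes within lane 6 (horizontal axis) and within lane 7 (vertical axis), coloured by role, with equality as a dashed line. All genes but Nop14 lie below the line, and 14 lie below 0 on the vertical axis.

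With lane as a covariate the median stayed at 0.44. At an unadjusted p under 0.05, 26 of the 42 were higher, with no share of all genes at hand for that threshold. After adjustment 0 of the 42 passed in edgeR (background 0.0846%). The calls of Polr1a, Gnl3 and Heatr1 were likewise lost without any 1 of parental 1, 2 or 3 or transformed 5, 6 or 8, where 0 of the 42 passed (backgrounds 0.0609%, 0.0166%, 0.0276%, 0.0907%, 0.051% and 0.0735%) and edgeR adjusted p of these genes ran from 0.0717 (Gnl3 without transformed 5) to 0.200 (Heatr1 without parental 3). Without transformed 4, 23 of the 42 passed as higher (background 6.25%), without transformed 7, 10 (background 2.87%), and without both, 34 (background 12.8%). In each of these 3 settings Polr1a, Gnl3 and Heatr1 were among them. Transformed 4 or 7 was the lowest transformed library in all 42 genes, so leaving both out removes the lowest transformed value of each. The calls in these settings are therefore no separate support for a difference. RLE factors, upper-quartile factors, no filter on low counts and a filter at CPM 1 gave 3, 4, 3 and 4 genes higher (backgrounds 0.925%, 0.902%, 0.428% and 1.32%).

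In every setting run, 0 of the 42 passed as lower. The background of lower calls was 2.07%, 2.11%, 1.14% and 2.62% in these last 4, 0.445% with lane as a covariate, 10.8% in lane 6 and 0% in lane 7. It was 0.354%, 0.183% and 0.116% without parental 1, 2 and 3, and 9.26%, 0.397%, 0.329%, 4.76% and 0.351% without transformed 4 to 8 in turn. Without both transformed 4 and 7 it was 16.1%.

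The 42 genes lie on 17 chromosomes, some of which differed as a whole between the groups. Rcl1, Noc3l, Nolc1 and Rrp12 are on chromosome 19, where the median of 511 tested genes was -0.34. Polr1b, Nop56 and Nop10 are on chromosome 2 (median -0.15), and Fbl and Grwd1 on chromosome 7 (median 0.17). With each gene set against the median of its chromosome, the median of the 42 was 0.40. Annotated snoRNA genes lie inside 7 of the 42, among them Nop56 with 5, Nop58 with 4 and Ncl, Gnl3 and Wdr43 with 3 each. Whether reads of the snoRNAs entered the counts of these genes was not tested.

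The rest of the pathway, 107 genes that could be matched of 108 listed, had a median log2 fold change of 0.27. Of these 100 were positive, 8 passed as higher in edgeR (7.48%, background 0.908%) and 0 as lower (1 at an unadjusted p under 0.05, 0 in limma-voom and 1 in DESeq2). The other small-subunit factors had 41 of 41 positive (median 0.34), and Utp18, Utp25 and Mphosph10, all processome proteins, rose, with log2 fold changes of 0.65, 0.56 and 0.67 (edgeR adjusted p = 0.0463, 0.0497 and 0.0386). The other large-subunit factors had 46 of 48 positive (median 0.28), and 5 rose: Rrp1b (0.59), Rrp8 (0.61), Brix1 (0.45), Mdn1 (0.58) and Sdad1 (0.68). Mdn1, the giant ATPase that strips assembly factors from pre-60S particles, went from 145, 203 and 165 CPM in parental 1 to 3 to 255, 259.8, 267, 256 and 245 CPM in transformed 4 to 8 (edgeR adjusted p = 0.0337). It was as high in transformed 4 and 7 as in the others. In these 8 genes all 5 transformed libraries lay above the parental ones, and with lane as a covariate 0 passed (edgeR adjusted p from 0.0576 in Rrp8 to 0.0968 in Utp25). Of the 107 genes, 1 passed as higher without parental 2 (background 0.0166%), 38 without transformed 4 (background 6.25%) and 21 without transformed 7 (background 2.87%). Without parental 1 or 3 or transformed 5, 6 or 8, 0 passed as higher (backgrounds 0.0609%, 0.0276%, 0.0907%, 0.051% and 0.0735%).

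The other RNA polymerase I subunits and initiation factors gave fewer positive values. Of 18, 13 were positive (median 0.12) and 0 passed in edgeR. At an unadjusted p under 0.05, 3 were higher and 1 lower (backgrounds 10.6% and 11.6%). DESeq2 called 2 higher and 1 lower (backgrounds 5.28% and 6.12%) and limma-voom 0. The 18 include Polr2e, Polr2f, Polr2h, Polr2k and Polr2l, subunits shared with RNA polymerase II. Their log2 fold changes were -0.051, 0.19, -0.23, 0.083 and 0.43. Tcof1 had the largest log2 fold change of the 107 (0.70, SE 0.24, edgeR adjusted p = 0.142). Ttf1, which terminates transcription by RNA polymerase I, was at 33.7, 34.1 and 33.3 CPM in parental 1 to 3 and at 29.7, 23.7, 23.2, 23.7 and 25.5 CPM in transformed 4 to 8. All transformed libraries were below the parental ones (log2 fold change -0.42 with an SE of 0.10 and an edgeR adjusted p of 0.0613), and DESeq2 called it lower. Ttf1 lies on chromosome 2. Polr1f, a subunit of the polymerase stalk, was at 59.9 to 62.5 CPM in parental and 71.6 to 89.6 CPM in transformed libraries (log2 fold change 0.36 with an SE of 0.091 and an edgeR adjusted p of 0.0647).

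**Figure D5:**
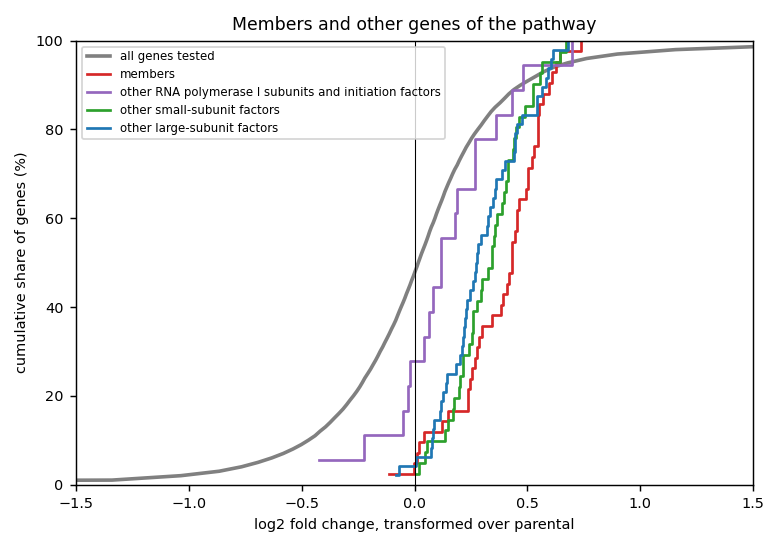
Cumulative share of genes (vertical axis, percent) at or below each log2 fold change (horizontal axis) for the 42 genes, 3 lists of other pathway genes and all genes tested. At the midpoint the curve of the 42 genes lies farthest right, the other small- and large-subunit factors follow, and the other RNA polymerase I factors lie nearer to all genes.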

How the data were processed

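Gene expression was measured by polyA RNA sequencing in 3 parental and 5 transformed Ba/F3 libraries. The values deposited are whole-number read counts, 1 row per Ensembl gene and not normalised. Alignment and counting tools listed by the submitters' processing notes are STAR 2.5.3a and featureCounts 1.5.3, with builds mm10 and GRCm38.p5. No source used here gives the annotation release, the strand setting or how multi-mapping reads were handled. The table had 0 columns outside the 8 libraries. Symbols, coordinates (GRCm38) and exon lengths came from GENCODE M21. For 105 genes no match was found (0.0212% of counts).

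The members and lists were chosen with earlier results of these data known. edgeR 4.0.16 in R 4.3.3 (its filterByExpr filter, TMM scaling and the robust, 2-sided quasi-likelihood test) was fitted on all genes, with Benjamini-Hochberg adjustment over all 17733 tested and a threshold of 0.05. Levels are TMM-scaled CPM, and library averages use log2 CPM with a prior count of 2. SEs come from the fold change and its F statistic. Alternatives were DESeq2 1.42.0, limma-voom (limma 3.58.1), RLE or upper-quartile factors, 2 other filters, lane as a covariate and each lane. Others left out each library, or both transformed 4 and 7, between them the lowest transformed library in all 42 genes. Genes given in every library were those past the threshold, the smallest p of each role, the 5 highest in TPM and those with negative fold changes. On simulated counts for this comparison (17536 genes) the share of changed genes that edgeR called was 11.9% at 1.5-fold (67 genes), 58.2% at 2-fold (67 genes) and 100% at 4-fold (66 genes).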

Additional observations from a re-analysis of the deposited data

Results flagged for a closer look

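In 3 of the 42 genes 1 transformed library stood far from the other 4 by Dixon's test for an outlying value in a group of 5 (critical value 0.710). Chance flags about 1 in 20 groups, and 42 were examined. Nop58 was at 314 CPM in transformed 4, where the others had 379.9 to 405 CPM (gap over range 0.722). Rrp9 was at 58.6 CPM in transformed 4, where the others had 87.3 to 95.9 CPM (0.769). Nop10 was at 107 CPM in transformed 7, where the others had 180.5 to 205 CPM (0.746).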

How the results depend on the processing

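The median of the 42 genes stayed positive under every alternative. It moved to 0.65 within lane 6 and 0.099 within lane 7, and ran from 0.38 to 0.53 when 1 library was left out. RLE and upper-quartile factors gave 0.44 and 0.43. The count of genes called higher (3) was 19 in DESeq2, 0 with lane as a covariate, 35 in lane 6, 0 in lane 7, 34 without transformed 4 and 7, and 0 to 23 when 1 library was left out. Called lower were 0 throughout. For the other pathway genes (8 higher, 0 lower) the count called higher was 27 in DESeq2 (background 5.28%) and 0 with lane as a covariate (background 0.0846%). It was 73 in lane 6 (background 9.6%) and 68 without transformed 4 and 7 (background 12.8%). When 1 library was left out it ran from 0 to 38 (backgrounds 0.0166% to 6.25%). Of these genes 1, Ttf1, was called lower in DESeq2, in lane 6 and without transformed 4 and 7, and 0 to 1 when 1 library was left out. No paired analysis was possible because the groups share no replicate numbers.

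Signs turned within lane 7 for Polr1b (-0.039), Nop56 (-0.16), Gar1 (-0.021), Nhp2 (-0.025), Nop10 (-0.25), Nolc1 (-0.31), Imp3 (-0.11), Pes1 (-0.042), Wdr12 (-0.013), Nop2 (-0.080), Noc2l (-0.14) and Noc3l (-0.00077). Near-zero genes turned elsewhere. Polr1c was at 0.0043 in lane 6 and 0.015 without transformed 4 and 7. Rcl1 was at 0.0019 in DESeq2, 0.0016 in limma-voom, 0.0017 with RLE factors, 0.15 in lane 6 and 0.024 without transformed 4 and 7. Wdr12 was at -0.030 in that last setting, and Nop10 at -0.015 in limma-voom. When 1 library was left out, Rcl1 ran from -0.069 to 0.10, Nop10 from -0.051 to 0.15 and Wdr12 from -0.077 to 0.11. The cause was not tested. Of 756 values of single genes under alternatives, 593 kept sign and side of the threshold, 109 newly passed, 24 no longer passed and 30 changed sign.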
